A study of Mus musculus with 10 samples.

Results

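The 40 genes described here encode the machinery that tethers, docks, fuses and retrieves synaptic vesicles, the small membrane sacs from which neurons release transmitter. They were picked out by gene symbol from a list drawn up with earlier results of these data known, and all 40 had a row among the 49315 rows of the count table and were among the 17080 genes tested. RNA came from the dorsal dentate gyrus, where the layer of granule cell bodies was dissected. The dentate gyrus is the part of the hippocampus whose granule cells send mossy fibre axons to CA3. The groups were 5 male C57 BL/6 mice from cocaine self-administration and 5 from saline self-administration, with 1 library per mouse. The labels used here give no age, dose or day of dissection, and name no allele or agent shared by both groups. No cells were sorted, so glia, vessels, interneurons and other neighbours of the granule cells can contribute RNA. In such bulk libraries fewer cells of a type and less RNA per cell cannot be told apart.

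Transmitter release begins when a vesicle carrying the SNARE protein synaptobrevin meets syntaxin and SNAP-25 at the active zone, where the 3 proteins zip into a complex. Priming factors and active zone scaffolds hold vesicles ready beside calcium channels, complexins clamp the partly zipped complex, and synaptotagmins sense the calcium that triggers fusion. NSF and alpha-SNAP then pull the complexes apart, while dynamin, synaptojanin, amphiphysin and endophilin recover the membrane. Mossy fibre terminals of granule cells are known for large vesicle pools, a low initial release probability and a presynaptic form of long-term potentiation that depends on Rab3A and RIM1. An mRNA level in the granule cell layer reports on cell bodies and on whatever else was dissected, and says nothing direct about protein at the terminals.

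None of the 40 genes was called different between cocaine and saline, but 37 of the 40 had fold changes below 1. At an adjusted p under 0.05, edgeR's quasi-likelihood test with Benjamini-Hochberg adjustment called 0 of the 40, against a background of 0.00% of all 17080 genes in each direction. DESeq2 and limma voom, the latter run with a weight for each library (sample weights), also called 0 of the 40. The smallest adjusted p among them was 0.538 and the smallest over all genes was 0.504. Without adjustment, 4 of the 40 reached p under 0.05 and were lower with cocaine (Pclo, Syt1, Syt4 and Rph3a) and 0 were higher, beside 3.33% of all genes lower and 5.58% higher. Fold changes below 1 were seen in 46.4% of all genes tested. The median log2 fold change, cocaine over saline, was -0.13 over the 40 genes and 0.02 over all genes. The lowest was -0.30 for Pclo and the highest 0.23 for Unc13c, so no estimate reached the size of a 1.5-fold change. The groups overlapped for all 40 genes, while 0.609% of all genes had every cocaine library below every saline library and 0.773% had the reverse.

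The number at p under 0.05 moved with single libraries. Leaving out cocaine replicate 3 or 4, or saline replicate 1, 3 or 5, brought it to 0, and in those fits 1.60% to 2.76% of all genes were lower at the same p. It was 2 without cocaine replicate 5 (4.96% of all genes), 6 without cocaine replicate 1 (2.91%) or saline replicate 4 (2.90%), 7 without saline replicate 2 (3.62%) and 11 without cocaine replicate 2 (6.55%). It was 1 with upper-quartile scaling (2.57%), which also put Syp, Snap25 and Rab3a above a fold of 1. The median over the 40 genes stayed below 0, between -0.17 and -0.09, when any 1 library was left out.

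**Figure D1:**
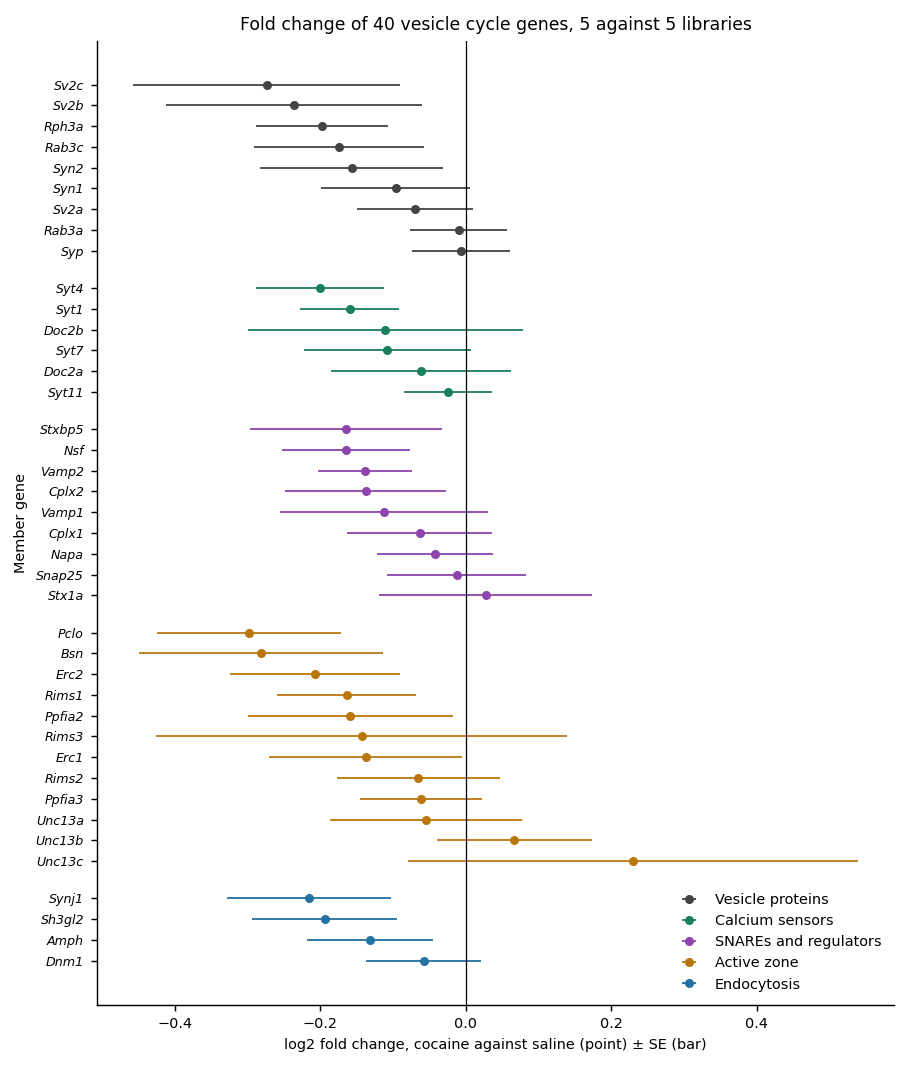
Log2 fold change of each of the 40 genes, cocaine over saline, with bars of 1 SE derived from edgeR's F statistic, grouped and coloured by role in the vesicle cycle. Estimates run from -0.30 for Pclo to 0.23 for Unc13c, and 37 of the 40 lie below 0.

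The promoters of 4 of these genes are printed. Rph3a and Pclo had unadjusted p under 0.05, Bsn and Pclo are the paired giant scaffolds, and Syn1 is the vesicle coat gene whose promoter is widely used to drive expression in neurons. Each sequence lies within the 250 bases before the RefSeq transcription start (GRCm38.p6), reads 5' to 3' on the gene's strand, and is in lower case with matched motifs in capitals.
Rph3a lies upstream at chr5:121010093-121010342 on the minus strand, Pclo at chr5:14514668-14514917 on the plus strand, Bsn at chr9:108190385-108190633 on the minus strand, and Syn1 at chrX:20921005-20921168 on the minus strand.
Rph3a: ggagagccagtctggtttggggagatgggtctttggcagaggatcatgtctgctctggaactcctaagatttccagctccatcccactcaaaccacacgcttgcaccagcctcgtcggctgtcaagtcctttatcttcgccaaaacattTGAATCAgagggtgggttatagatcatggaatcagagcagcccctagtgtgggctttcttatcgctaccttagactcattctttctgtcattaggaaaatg
Pclo: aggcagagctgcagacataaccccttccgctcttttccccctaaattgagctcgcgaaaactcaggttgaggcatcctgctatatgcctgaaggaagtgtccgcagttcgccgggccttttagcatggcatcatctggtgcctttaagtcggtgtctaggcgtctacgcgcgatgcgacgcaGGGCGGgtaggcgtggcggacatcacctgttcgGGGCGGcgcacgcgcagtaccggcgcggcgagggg
Bsn: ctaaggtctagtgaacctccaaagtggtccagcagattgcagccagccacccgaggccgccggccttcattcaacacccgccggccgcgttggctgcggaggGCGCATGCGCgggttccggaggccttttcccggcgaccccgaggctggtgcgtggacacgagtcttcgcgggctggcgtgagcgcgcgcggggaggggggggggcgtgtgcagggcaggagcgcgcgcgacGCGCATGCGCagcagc
Syn1: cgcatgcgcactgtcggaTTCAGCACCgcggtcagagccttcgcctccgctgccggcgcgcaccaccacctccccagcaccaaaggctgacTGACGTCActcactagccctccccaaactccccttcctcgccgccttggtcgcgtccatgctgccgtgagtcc
The sequences of Rph3a and Pclo run up to the base before the start. The 86 bases of Syn1 and the 1 base of Bsn next to the start were left out because the gene annotation counts them as part of the gene, so 164 and 249 bases are printed. In Rph3a the capitals mark an AP-1 motif (TGANTCA) 101 bases before the start. In Pclo they mark SP/KLF motifs (GGGCGG) 68 and 35 bases before it. The capitals in Bsn mark the 10-base palindrome bound by NRF1, 148 and 17 bases before the start, and those in Syn1 mark the left part of an RE1 element (TTCAGCACC) at 232 bases and a CRE (TGACGTCA) at 159 bases.

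Promoters were matched for 33 of the 40 genes, and motifs were searched on both strands over the 250 bases before the start. Some RefSeq starts lay away from the start of the gene in the GENCODE annotation. The distance was 68793 bases for Cplx2, 2565 for Syt11, 790 for Rab3c and 330 for Sh3gl2. GGGCGG was present in 23 of the 33 (69.7%) and in 39.4% of 20591 promoters of the same length. The EGR motif GCGNGGGCG was present in 7 of the 33 (21.2%) and in 5.67% of all promoters: Syn2, Stxbp5, Nsf, Unc13a, Erc1, Ppfia3 and Sh3gl2. Its letters can overlap GGGCGG. The NRF1 palindrome, whose letters are the capitals in Bsn, was found in Bsn and Stxbp5 (6.06% against 0.957%), TGACGTCA in Syn1 and Sh3gl2 (6.06% against 1.91%), and TTCAGCACC in Syn1 and Ppfia3 (6.06% against 0.291%). TGANTCA was found in Rph3a and Erc2 (6.06% against 6.44%), and the TATA motif TATAAA in Sv2b alone (3.03% against 12.2%). A match describes letters in the window only.

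The tissue held these RNAs at widely different levels. Scaled to exon length and library size (RPKM, mean ± SD over 10 libraries), Cplx2 was highest at 557 ± 74.8, followed by Snap25 at 354 ± 37.9, Syp at 321 ± 18.7, Dnm1 at 289.8 ± 23.5, Vamp2 at 239 ± 16.8, Rab3a at 228 ± 12 and Cplx1 at 223 ± 25.3. Neighbours in this order did not all differ beyond their spread: Snap25 and Syp lay within an SD of each other, as did Vamp2, Rab3a and Cplx1. At the other end stood Doc2a at 6.03, Sv2c at 5.45, Erc1 at 4.32, Unc13c at 2.97 and Unc13b at 1.77 RPKM. Exon length here is the union over transcripts, which lowers the RPKM of genes with long, little-used exons. Syt11 varied least between libraries (highest over lowest 1.13), then Rab3a (1.20) and Syp (1.21). Rims3 (3.63) and Unc13c (3.13) varied most.

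**Figure D2:**
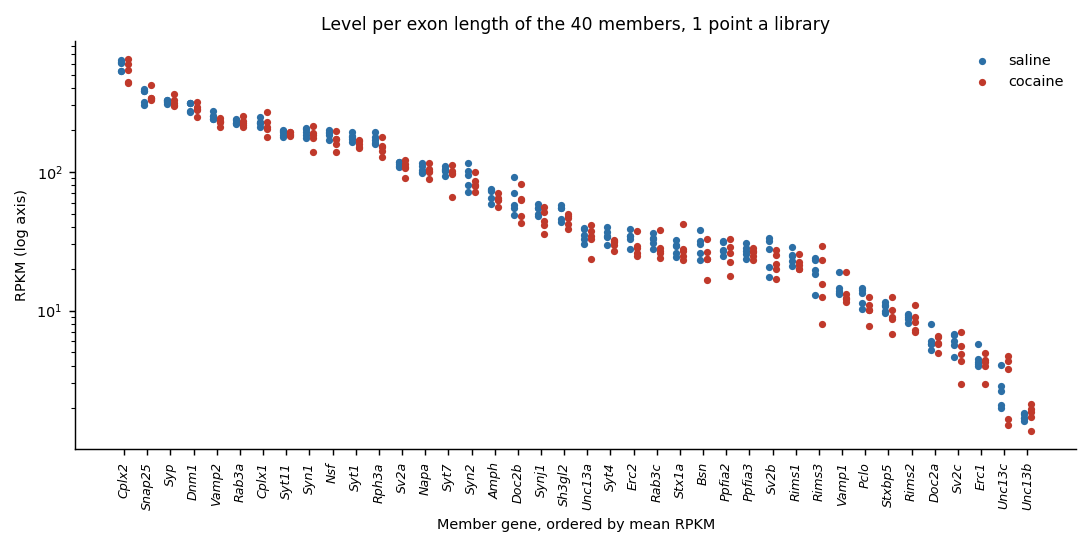
RPKM of the 40 genes on a log axis, with 1 point per library and the groups in different colours, ordered by mean level. Cplx2 is highest at a mean of 557 and Unc13b lowest at 1.77.

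Among the 9 genes of the vesicle itself, all 9 had fold changes below 1, the median being -0.16 on the log2 scale, and 1 had an unadjusted p under 0.05. That gene was Rph3a, which encodes rabphilin, an effector that binds Rab3 on the vesicle (chr5:120940499-121010092). Its level was 709, 825, 650.0, 699 and 596 CPM (counts scaled to library size) in cocaine replicates 1 to 5 and 895, 736, 787, 746 and 825 CPM in saline replicates 1 to 5. In 4 of the 5 cocaine libraries it lay below the lowest saline library, while cocaine replicate 2 was within the saline range. The means were 696 ± 85.3 and 798 ± 64.8 CPM (SD, n = 5 each). The log2 fold change was -0.20 (SE 0.09), with an adjusted p of 0.558 by edgeR's quasi-likelihood test with Benjamini-Hochberg adjustment. Rab3c, a small GTPase of the vesicle surface, was at 456, 288, 342, 325 and 311 CPM in the cocaine libraries and 369, 435, 404, 336 and 397 CPM in the saline libraries, a log2 fold change of -0.17 (SE 0.12). Cocaine replicate 1 was the highest of all 10 libraries and 3 other cocaine libraries were the lowest.

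Syp encodes synaptophysin, the abundant membrane protein used to mark vesicles (chrX:7638471-7653256). It stood at 1621, 1563, 1706, 1561 and 1889.6 CPM in the cocaine libraries and at 1663, 1683, 1712, 1597 and 1724 CPM in the saline libraries. Cocaine replicate 5 was the highest of the 10 libraries, and 2 cocaine libraries lay below the lowest saline library. The log2 fold change was -0.01 (SE 0.07, 95% interval -0.15 to 0.14). Rab3a, the main Rab3 of excitatory terminals, likewise had a log2 fold change of -0.01 (SE 0.07). Of the glycoproteins of the SV2 family, Sv2a was at -0.07 (SE 0.08), Sv2b at -0.24 (SE 0.18) and Sv2c at -0.27 (SE 0.18). The synapsins, which tether vesicles to one another in the reserve pool, were at -0.10 (SE 0.10) for Syn1 and -0.16 (SE 0.13) for Syn2. Syn1 was at 455 CPM in cocaine replicate 5 and between 572 and 701 CPM in the other 9 libraries.

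All 6 calcium sensor genes among the 40 (Syt1, Syt4, Syt7, Syt11, Doc2a and Doc2b) had fold changes below 1. Their median was -0.11 on the log2 scale, and 2 of them had unadjusted p under 0.05. Of the other synaptotagmins listed for the vesicle cycle, Syt3, Syt5, Syt6 and Syt9 had log2 fold changes above 0 (0.0068 to 0.31). Those of Syt2, Syt10, Syt12, Syt13 and Syt17 were below 0 (-0.15 to -0.037). Syt1, the fast sensor for synchronous release (chr10:108497650-109010982), was at 1391, 1411, 1264, 1314 and 1229 CPM in the cocaine libraries and 1519, 1356, 1476, 1425 and 1604 CPM in the saline libraries. It was below every saline library in 3 of the 5 cocaine libraries. The means were 1322 ± 78.7 and 1476 ± 93.8 CPM (SD, n = 5 each), and the log2 fold change was -0.16 (SE 0.07), with an edgeR Benjamini-Hochberg adjusted p of 0.539. Syt4, a synaptotagmin found on dense core vesicles whose RNA responds to neuronal activity (chr18:31437808-31447406), was at 126, 122, 104, 116 and 124 CPM with cocaine. With saline it was at 156, 133, 144, 115 and 131 CPM. The 5 cocaine libraries lay within a narrow band that 1 saline library shared. The log2 fold change was -0.20 (SE 0.09), with an edgeR Benjamini-Hochberg adjusted p of 0.547, and it was -0.22 without cocaine replicate 5. An annotated RNA on the opposite strand, Gm26658, overlaps 14.5% of the Syt4 exons. The strand setting of the counting is not given in the sources used here, so reads of the pair may not be separated.

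Syt7, the high-affinity sensor tied to facilitation and asynchronous release, had a log2 fold change of -0.11 (SE 0.11). It was at 496 CPM in cocaine replicate 5 and between 702 and 837 CPM in the other 9 libraries. Syt11, which does not bind calcium and acts in membrane retrieval, was at -0.02 (SE 0.06). The soluble C2 domain sensors Doc2a and Doc2b were at -0.06 (SE 0.12) and -0.11 (SE 0.19). Exons of Ino80e on the opposite strand overlap 39.4% of the Doc2a exons, so its values carry the same uncertainty. Opposite-strand genes also overlap 22.3% of the exons of Ppfia2, 16.8% of those of Syp and 11.8% of those of Erc1.

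**Figure D3:**
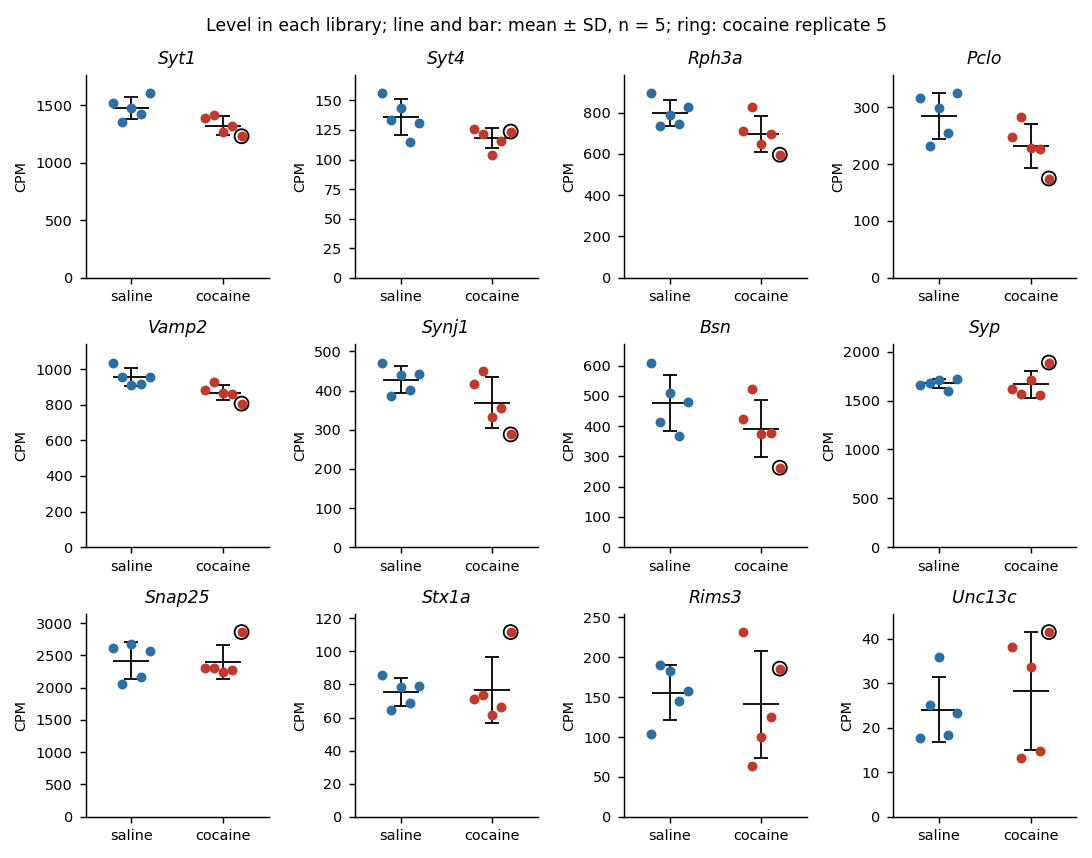
CPM of 12 of the genes, 1 panel each, with 1 point per library in the saline and cocaine groups, the line and bar giving mean ± SD (n = 5 each) and a ring around cocaine replicate 5. Rph3a and Vamp2 each have 4 cocaine libraries below the lowest saline library, and Snap25 has cocaine replicate 5 at 2860.1 CPM.

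Of the 9 SNARE genes and their regulators, 8 had fold changes below 1, the median being -0.11 on the log2 scale, and 0 had an unadjusted p under 0.05. Vamp2, the synaptobrevin of most forebrain synapses (chr11:69088490-69092384), came closest. It was at 880.4, 929, 863, 862 and 806 CPM in the cocaine libraries and at 1037, 957, 913, 915 and 955 CPM in the saline libraries. In 4 of the 5 cocaine libraries it was below the lowest saline library. The means were 868 ± 44.1 and 955 ± 50.2 CPM (SD, n = 5 each), a log2 fold change of -0.14 (SE 0.06), and the edgeR Benjamini-Hochberg adjusted p was 0.563. Vamp1, the second synaptobrevin, was at 194, 118, 133, 122 and 125 CPM in the cocaine libraries and 133, 148, 192, 139.7 and 136 CPM in the saline libraries, a log2 fold change of -0.11 (SE 0.14). Leaving out cocaine replicate 1 gave -0.26 for Vamp1, and leaving out saline replicate 3 gave -0.0068. Cocaine replicate 1 was the highest of the 10 libraries, and the other 4 cocaine libraries lay below the lowest saline library. Of these, cocaine replicate 3 was nearly level with it (132.76 against 132.96 CPM).

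Snap25, the plasma membrane SNARE (chr2:136713453-136782428), was at 2304, 2299, 2237, 2272 and 2860.1 CPM in the cocaine libraries and 2609, 2061, 2679, 2158 and 2568 CPM in the saline libraries. Its log2 fold change was -0.01 (SE 0.10, 95% interval -0.22 to 0.19), and cocaine replicate 5 was the highest of the 10 libraries. Stx1a, its syntaxin partner, named after its values were seen, showed the same library on top: 71.2, 73.8, 61.3, 66.1 and 112 CPM with cocaine against 85.9, 64.8, 78.3, 69.0 and 78.8 CPM in the saline libraries. Its log2 fold change was 0.03 (SE 0.15), but -0.14 with limma voom and -0.091 with offsets for GC content and length. Stxbp5, which encodes tomosyn, an inhibitor of SNARE assembly, was at -0.16 (SE 0.13).

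The complexins, which clamp and then promote fusion, differed in their spread. Cplx1 was at 592, 389, 461, 445 and 497 CPM in the cocaine libraries and 495, 500.4, 544, 459 and 495 CPM in the saline libraries, a log2 fold change of -0.06 (SE 0.10). Cplx2 was at 2169, 3177, 2915, 2660.4 and 2155 CPM in the cocaine libraries and 3157, 2632, 2615, 2967 and 3014 CPM in the saline libraries, a log2 fold change of -0.14 (SE 0.11). Cocaine replicates 1 and 5 were the lowest of all libraries for Cplx2, while cocaine replicate 1 was the highest for Cplx1. Nsf, the ATPase that separates used SNARE complexes, was at 1329, 1637, 1427, 1425 and 1156 CPM in the cocaine libraries and 1668, 1420.4, 1524, 1590.1 and 1612 CPM in the saline libraries. Cocaine replicate 2 lay among the highest and the log2 fold change was -0.16 (SE 0.09). Its adaptor alpha-SNAP, encoded by Napa, was at -0.04 (SE 0.08).

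The 12 active zone genes held both the lowest and the highest estimates. Fold changes were below 1 for 10 of them, the median log2 fold change was -0.14, and 1 had an unadjusted p under 0.05. Pclo, which encodes the giant scaffold piccolo (chr5:14514918-14863459), was at 248, 283, 229, 227 and 175 CPM in the cocaine libraries and 317, 231, 298, 255 and 325 CPM in the saline libraries. In 3 of the 5 cocaine libraries it was below every saline library. The means were 232 ± 39.2 and 285 ± 40.5 CPM (SD, n = 5 each), and the log2 fold change was -0.30 (SE 0.13), with an edgeR Benjamini-Hochberg adjusted p of 0.538. Bsn, which encodes the partner scaffold bassoon (chr9:108096022-108190384), was at 422, 523, 373, 377 and 263 CPM in the cocaine libraries and 610.3, 413, 509, 368 and 479.6 CPM in the saline libraries. The groups overlapped widely and the log2 fold change was -0.28 (SE 0.17). For Pclo it was -0.21 without cocaine replicate 5 and -0.38 without cocaine replicate 2, and for Bsn -0.17 and -0.41.

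The Munc13 genes encode priming factors. Unc13a, the main form at excitatory synapses, was at 414, 525, 472, 432 and 295 CPM in the cocaine libraries and 441, 383, 412, 498 and 487 CPM in the saline libraries. Its log2 fold change was -0.05 (SE 0.13), and 0.05 without cocaine replicate 5. Unc13b was at 48.3, 44.6, 42.5, 39.0 and 31.0 CPM in the cocaine libraries and 41.2, 36.3, 38.5, 41.7 and 38.5 CPM in the saline libraries (0.07, SE 0.11). Unc13c, known best from cerebellum, was at 38.0, 13.3, 33.6, 14.7 and 41.5 CPM in the cocaine libraries and 17.6, 25.0, 35.8, 18.3 and 23.3 CPM in the saline libraries. Its cocaine libraries lay on both sides of the saline range, and the log2 fold change was 0.23 (SE 0.31).

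RIM proteins link vesicles to calcium channels, and their log2 fold changes were -0.16 (SE 0.10) for Rims1, -0.06 (SE 0.11) for Rims2 and -0.14 (SE 0.28) for Rims3. Rims3, named after its values were seen, was at 232, 63.9, 99.5, 125 and 186 CPM in the cocaine libraries and 104, 190.1, 183, 145 and 157 CPM in the saline libraries. The cocaine libraries again spanned the saline range. The ELKS scaffold gene Erc2 was at 251, 367, 276, 284 and 239 CPM in the cocaine libraries and 375, 271, 319, 334 and 337 CPM in the saline libraries, a log2 fold change of -0.21 (SE 0.12) with overlapping groups. Erc1 was at -0.14 (SE 0.13). The liprins that recruit scaffolds were at -0.16 (SE 0.14) for Ppfia2 and -0.06 (SE 0.08) for Ppfia3.

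All 4 membrane retrieval genes among the 40 had fold changes below 1, the median being -0.16 on the log2 scale, and 0 had an unadjusted p under 0.05. Synj1, the lipid phosphatase that uncoats retrieved vesicles, was at 418, 449.8, 333, 356 and 288 CPM in the cocaine libraries and 472, 386, 440.2, 401 and 442 CPM in the saline libraries. In 3 of the 5 cocaine libraries it was below every saline library, and the log2 fold change was -0.22 (SE 0.11). Sh3gl2, which encodes endophilin A1, was at 316, 305, 252, 274 and 324 CPM in the cocaine libraries and 361, 283, 378, 299 and 361 CPM in the saline libraries, a log2 fold change of -0.19 (SE 0.10). Dnm1, the neuronal dynamin that cuts vesicles free, was at 1536, 1667, 1493, 1461 and 1296 CPM in the cocaine libraries and 1652, 1415, 1631, 1431 and 1629 CPM in the saline libraries. The groups overlapped and its log2 fold change was -0.06 (SE 0.08). Amph was at -0.13 (SE 0.09).

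Among the 40 genes, Vamp2, Rab3a and Sv2a led their families in both groups. The RIM, complexin, liprin and Munc13 families, so limited, had the widest ranges of shares over the 10 libraries. Shares of a family's summed RPKM are given as mean ± SD over 5 libraries each. Vamp2 made up 94.4% of the summed RPKM of Vamp1 and Vamp2 in both groups. Rab3a made up 88.8% with cocaine and 87.7% with saline of that of Rab3a and Rab3c. Sv2a made up 79.8% and 78.0% of the SV2 RNA. Rims3 made up 35.5 ± 11.1% of the RNA of Rims1, Rims2 and Rims3 with cocaine and 36.8 ± 6.73% with saline. Its share was 19.7% in cocaine replicate 2, 46.6% in cocaine replicate 1 and 45.3% in cocaine replicate 5. Unc13c made up 8.73 ± 5.14% of the Munc13 RNA with cocaine and 6.98 ± 2.41% with saline, from 3.34% in cocaine replicate 2 to 16.0% in cocaine replicate 5. Cplx1 made up 29.5 ± 6.57% of the complexin RNA with cocaine, from 21.6% in cocaine replicate 2 to 38.1% in cocaine replicate 1. Ppfia2 made up 43.1% to 57.3% of the summed RPKM of Ppfia2 and Ppfia3. Thus cocaine replicates 1 and 5 lay at one end and cocaine replicate 2 at the other in the RIM, Munc13 and complexin families.

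**Figure D4:**
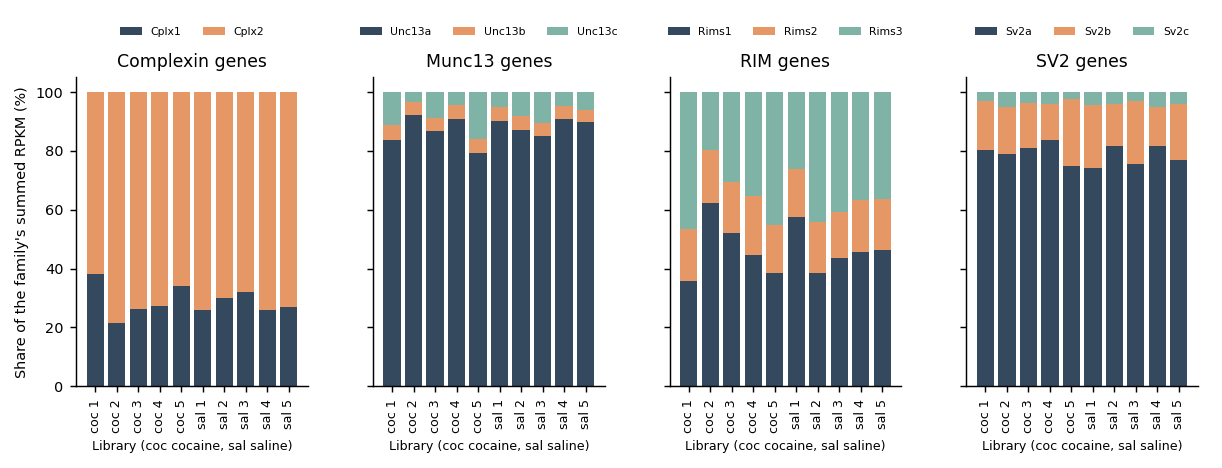
Stacked bars give each gene's share, in percent, of the summed RPKM of the complexin, Munc13, RIM and SV2 families in each of the 10 libraries. Only family members among the 40 genes are counted. Rims3 runs from 19.7% to 46.6% and Unc13c from 3.34% to 16.0% among the cocaine libraries.

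Cocaine replicate 5 most often held the lowest value. It held the lowest value of 22 of the 40 genes and the highest of 5. Its median deviation from the mean of the other 9 libraries was -0.22 on the log2 CPM scale. It had 29 genes below that mean, and cocaine replicates 1 to 4 had 24, 15, 30 and 32. For saline replicates 1 to 5 these counts were 8, 25, 11, 22 and 4. Saline replicate 1 held the highest value of 14 genes. In cocaine replicate 5 long RNAs tended to be low: over the 10 genes with the longest exons (10167 bases or more, among them Pclo, Bsn, Unc13a and Erc1) the median deviation was -0.59, and over the 10 shortest (4528 bases or fewer, among them Cplx1, Rab3a, Stx1a and Vamp2) it was 0.00. Sv2c, with 9700 bases of exon, deviated by -0.94, Syt7, with 7487 bases, by -0.62, Bsn by -0.76, Ppfia2 by -0.65 and Unc13a by -0.61, whereas Unc13c deviated by 0.86, Stx1a by 0.64 and Snap25 by 0.29. Across the 40 genes, Spearman's rho of this deviation with exon length was -0.50, and across 17060 genes it was -0.42. For the log2 fold change, rho with exon length was -0.36 across the 40 genes and -0.25 across the 17060 genes. Across the 40 it was -0.01 without cocaine replicate 5. Genes are not independent replicates, so these are descriptions.

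**Figure D5:**
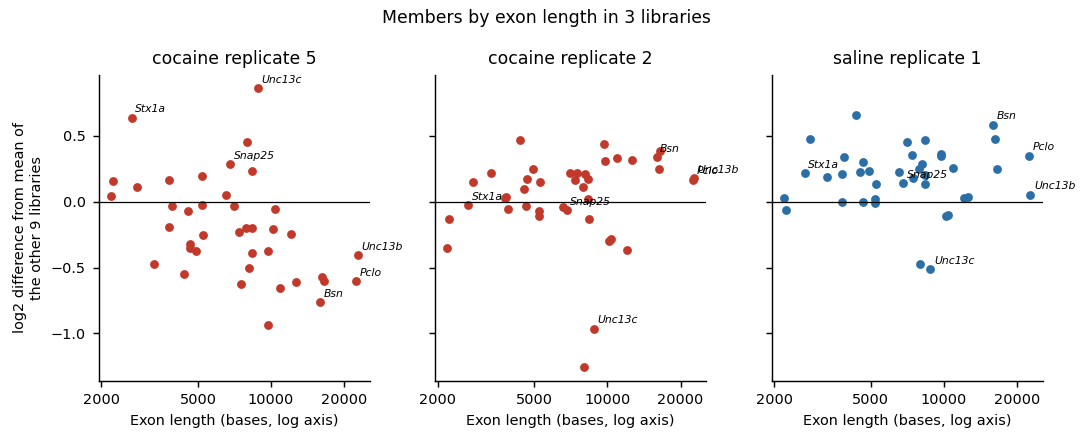
Log2 difference of 1 library from the mean of the other 9 (vertical axis) by exon length in bases (log axis), 1 point per gene, in panels for cocaine replicate 5, cocaine replicate 2 and saline replicate 1. In cocaine replicate 5 the 10 longest genes have a median of -0.59 and the 10 shortest of 0.00, and in cocaine replicate 2 these are 0.22 and 0.03.

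The libraries held 34991548 to 46481533 counts, and the 40 genes took 2.10% to 2.33% of them with cocaine and 2.16% to 2.42% with saline. The granule cell marker list (10 genes, 9 of them below a fold of 1) summed to 1309 to 2223 CPM in the cocaine libraries and 1635 to 2251 CPM in the saline libraries, and no marker of any list was at 0 in every library. Of the other neuronal markers, 2 of 5 for CA1, 3 of 8 for CA3 and CA2, 2 of 4 for mossy cells and 6 of 9 for interneurons were below a fold of 1. So were 7 of 8 astrocyte markers, 2 of 4 of oligodendrocyte precursors, 4 of 7 of microglia and 5 of 6 of endothelium. Among all these markers, 1 astrocyte marker was lower and 1 interneuron marker higher with unadjusted p under 0.05, beside 3.33% and 5.58% of all genes. All 12 oligodendrocyte markers were above a fold of 1 with unadjusted p under 0.05, beside 5.58% of all genes higher, and 0 of the 12 were called. Their sums were 3942 to 10491 CPM in the cocaine libraries and 3893 to 5576 CPM in the saline libraries. All 3 nuclear RNAs were above a fold of 1, at 1007 to 2467 CPM against 740.3 to 1214 CPM. Of the 3, 2 had unadjusted p under 0.05 and 0 were called by edgeR. For 1 of them every cocaine library was above every saline library, beside 0.773% of all genes. All 7 choroid plexus markers were above a fold of 1, at 61.1 to 3605 CPM against 94.0 to 1391 CPM. Cocaine replicate 5 had the most oligodendrocyte and the least granule marker RNA. The part of these differences in the values of the 40 genes was not tested. Without the 3 libraries richest in choroid plexus markers (cocaine replicates 1 and 5 and saline replicate 3), the count at unadjusted p under 0.05 was 6, made up of Rab3c, Syt4, Vamp1, Cplx1, Rims3 and Sh3gl2, all lower, beside 3.51% of all genes lower.

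A further 73 genes of the vesicle cycle were listed, 72 had a row and were tested, and 0 were called by edgeR. Fold changes were below 1 for 50 and above 1 for 22, beside 46.4% of all genes below 1. The median was -0.07 on the log2 scale. In the edgeR test 7 were lower and 6 higher with unadjusted p under 0.05, beside 3.33% and 5.58% of all genes. Every cocaine library was below every saline library for 1 gene (Cask), beside 0.609% of all genes. The reverse held for 3 (Dnm2, Bin1 and Snap23), beside 0.773% of all genes. Dnm2, the dynamin expressed in all tissues, was at 65.2, 63.4, 66.0, 69.5 and 64.1 CPM in the cocaine libraries and 50.1, 56.8, 54.2, 58.2 and 53.2 CPM in the saline libraries, so that every cocaine library was above every saline library. Its log2 fold change was 0.27 (SE 0.07) and its edgeR Benjamini-Hochberg adjusted p was 0.504. Limma voom with sample weights called it, with an adjusted p of 0.0467. Bin1, a membrane-bending protein that oligodendrocytes also express, was at 342 ± 18.4 CPM in the cocaine libraries and 294 ± 22.0 CPM in the saline libraries (SD, n = 5 each), again without overlap (log2 fold change 0.22, SE 0.07). The vesicle protein gene Scamp1 was lower, at 227 ± 11.2 against 255 ± 10.2 CPM (-0.16, SE 0.06), as was the scaffold gene Lin7a, at 12.5 ± 1.98 against 15.7 ± 2.02 CPM (-0.32, SE 0.12). Prrt2 had a log2 fold change of 1.58 (SE 0.53) at levels of at most 1.16 CPM in any library.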

How the data were processed

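Poly(A) RNA of the dissected layer was made into directional libraries with an NEB Ultra II kit, per the labels. The table deposited by the authors gives unnormalized counts for each Ensembl gene, from tools that the submitters' processing notes list as cutadapt, STAR, Cufflinks and HTSeq on mm10. Not given in the sources used here are their versions, the annotation release and whether counting used strand.

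Of 49315 rows, 19686 were 0 in every library, 49040 matched GENCODE M21 and 17080 passed edgeR's filter on low counts. Cocaine was compared with saline by edgeR 4.0.16 (R 4.3.3) with TMM scaling, quasi-likelihood tests and Benjamini-Hochberg adjustment at 0.05 over all tested genes. The common biological coefficient of variation was 0.187. DESeq2 1.42.0 and limma 3.58.1 (voom with sample weights) were alternatives. RPKM used the union of GENCODE exons. P-values set the group difference against the spread between libraries, 1 per mouse, and the 10 libraries set the precision.

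On simulated counts of 17080 genes, the edgeR step called 31 of 67 genes changed 1.5-fold, 46 of 67 changed 2-fold and 59 of 66 changed 3-fold. Of its 146 calls, 10 were unchanged genes. Each gene was drawn independently, so shifts shared by many genes within a library were not simulated. In the simulation 146 genes passed the adjusted threshold and in the real data 0 did, so these rates need not hold there.

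Members, lists and the naming rule were chosen with earlier results of these data known. Values in every library are given for genes with unadjusted p under 0.05, for the 2 of each role with the smallest p, and for 12 fixed genes. Promoters came from RefSeq (GRCm38.p6).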

Additional observations from a re-analysis of the deposited data

Results flagged for a closer look

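Each of the 40 genes was looked at within each group of 5 libraries for a library set apart from the rest, where the gap to its nearest neighbour exceeded 0.71 of the group's range (Dixon's 95% critical value). Of the 80 groups of values, 5 held such a library, and chance sets apart about 1 in 20. Snap25 in cocaine replicate 5 was at 2860.1 CPM, with the next cocaine library at 2304 CPM. Stx1a was also set apart in cocaine replicate 5, at 112 CPM with the next at 73.8 CPM. Vamp1 in cocaine replicate 1 was at 194 CPM with the next at 133 CPM, and in saline replicate 3 at 192 CPM with the next at 148 CPM. Erc1 in saline replicate 1 was at 93.5 CPM, with the next saline library at 72.7 CPM.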

How the results depend on the processing

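Over the alternatives run, the count of the 40 genes called stayed at 0, and their median log2 fold change stayed below 0. The count at unadjusted p under 0.05, 4 as reported, was 1 with upper-quartile factors (2.57% of all genes lower in that fit), 2 with a filter of 1 CPM in 5 libraries (3.14%), 7 with limma voom (6.65%), and 0 to 11 when 1 library was left out (1.60% to 6.55%). Over all genes, where edgeR called 0, 16 were called higher and 1 lower by DESeq2, 91 and 4 by limma voom, and 126 and 3 by edgeR without cocaine replicate 5. With limma voom, run throughout with sample weights, 1 other vesicle cycle gene was called (Dnm2, log2 fold change 0.29). Some estimates changed sign, Unc13c (0.23 as reported) among them, and the cause was not tested. With upper-quartile factors Syp was at 0.016 and Snap25 at 0.010, and with the stricter filter Syp was at 0.0030. Snap25 was at 0.00060 with GC content and length offsets, and Unc13c at -0.14 with limma voom. Stx1a (0.03 as reported) was at -0.14 with limma voom and at -0.091 with the offsets. Doc2b (-0.11 as reported) was at 0.017 with limma voom. Leaving out 1 library gave -0.056 to 0.018 for Syp, -0.085 to 0.026 for Snap25, -0.15 to 0.0031 for Cplx1 and -0.14 to 0.053 for Unc13a, and Rims3 was at 0.046 without cocaine replicate 2. Without the 3 libraries richest in choroid plexus markers, an alternative added after seeing the data, Unc13a was at 0.075, Unc13c at -0.042 and Dnm1 at 0.0076.

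With the replicate number as a block, the count at unadjusted p under 0.05 was 0 (2.25% of all genes lower). Libraries with the same number had correlations of -0.22 to 0.03 between their deviations, and 0 of 5 cocaine libraries correlated best with the saline library of their own number, so the numbers were not taken as pairs. On simulated counts 31 of 67 genes changed 1.5-fold were called. The 40 estimates as reported were all smaller than a 1.5-fold change. Without the 3 libraries richest in choroid plexus markers, Rims3 was beyond that size, at a log2 fold change of -0.63. How often changes in these 40 genes would be called in the real libraries was not tested.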

Other observations

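With offsets for GC content and length, 6 of the 40 genes had unadjusted p under 0.05, beside 5.74% of all genes lower in that fit. Bsn was among them, at a log2 fold change of -0.30 (SE 0.13), where the fit without offsets gave -0.28 (SE 0.17). Without the 3 libraries richest in choroid plexus markers, Rims3 was at -0.63 (SE 0.22) and Rab3c at -0.28 (SE 0.09). The edgeR Benjamini-Hochberg adjusted p was 0.357 for Rims3 and 0.348 for Rab3c. These values were chosen after they were seen.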
